A study of Mus musculus with 2 samples.

Results

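The 10 genes described here, Btg1, Btg2, Ier2, Ier3, Ier5, Klf2, Klf4, Klf6, Zfp36 and Cyr61, belong to the early response genes that many cell types transcribe within minutes of a stimulus. They were chosen by name, with earlier results of these data known, and all 10 were found among the 31054 genes of the count matrices. Single cells were sequenced in 2 libraries made from the preoptic area, the front part of the hypothalamus, of wild-type C57BL/6J mice at 9-10 weeks of age. The SD library came from mice deprived of sleep for 6 h, and the SD+RS library from mice that had 2 h of recovery sleep after the same deprivation. Males and females were pooled in both, in numbers the labels do not give, and no library of undisturbed mice was analysed here. Tissue was processed with Act-seq, in which a blocker of transcription is present while cells are freed from the tissue, and with 10x Genomics droplets.

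Early response genes need no new protein for their induction, and their mRNAs are short lived. Klf2 and Klf4 encode zinc finger transcription factors that endothelial cells raise under the shear of flowing blood, and they keep the vessel wall quiescent and hinder clotting. Btg1 and Btg2 encode antiproliferative proteins that bind the deadenylase complex, ZFP36 (tristetraprolin) speeds the decay of mRNAs with AU-rich tails, and Cyr61, now also called Ccn1, encodes a secreted matrix protein and a target of the YAP coactivator.

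In GENCODE vM21 on build GRCm38 (mm10), Klf2 lies on chromosome 8 at 72319033 to 72321656 with 3 exons, Klf4 on chromosome 4 at 55527143 to 55532466, and Klf6 on chromosome 13 at 5861482 to 5870394. Ier2, a gene of 1 exon, lies on chromosome 8 at 84661331 to 84662852, Ier3 on chromosome 17 at 35821684 to 35822923, and Ier5, also of 1 exon, on chromosome 1 at 155096361 to 155099636. Btg1 lies on chromosome 10 at 96617006 to 96622809, Btg2 on chromosome 1 at 134075170 to 134079120, Zfp36 on chromosome 7 at 28376784 to 28380253, and Cyr61 on chromosome 3 at 145646976 to 145649981. Zfp36 is the only member overlapped by another annotated gene, Gm44710 on the opposite strand.

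Promoter sequences from RefSeq on GRCm38.p6 were matched for 9 of the 10 genes, all but Ier2. The 250 bases before the RefSeq start of Klf2, Klf4, Klf6 and Btg2 are shown. The first 3 are shown because their endothelial levels differed most between the libraries among the genes matched. Btg2 is shown because its level over all neurons was the higher one after recovery sleep. Capitals mark the cyclic AMP response element TGACGTCA and the shorter TGACG that it contains on both strands, the E-box CACGTG, and matches to the MEF2 motif.
Klf2 (chr8:72318812-72319061, plus strand): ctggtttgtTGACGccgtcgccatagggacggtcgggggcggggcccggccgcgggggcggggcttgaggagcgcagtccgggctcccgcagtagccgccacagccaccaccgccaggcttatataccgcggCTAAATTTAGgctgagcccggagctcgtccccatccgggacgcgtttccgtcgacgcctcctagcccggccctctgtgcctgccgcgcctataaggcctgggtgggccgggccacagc
Klf4 (chr4:55532476-55532725, minus strand): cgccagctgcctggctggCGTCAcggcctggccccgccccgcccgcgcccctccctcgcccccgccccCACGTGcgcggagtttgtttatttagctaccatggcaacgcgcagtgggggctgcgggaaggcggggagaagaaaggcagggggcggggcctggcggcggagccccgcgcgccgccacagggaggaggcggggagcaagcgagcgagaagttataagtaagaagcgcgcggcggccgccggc
Klf6 (chr13:5861239-5861488, plus strand): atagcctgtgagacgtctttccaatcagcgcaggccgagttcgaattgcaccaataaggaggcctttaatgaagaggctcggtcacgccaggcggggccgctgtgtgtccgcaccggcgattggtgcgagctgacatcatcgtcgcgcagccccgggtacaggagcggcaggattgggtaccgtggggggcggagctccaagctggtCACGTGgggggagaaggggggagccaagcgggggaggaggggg
Btg2 (chr1:134079156-134079405, minus strand): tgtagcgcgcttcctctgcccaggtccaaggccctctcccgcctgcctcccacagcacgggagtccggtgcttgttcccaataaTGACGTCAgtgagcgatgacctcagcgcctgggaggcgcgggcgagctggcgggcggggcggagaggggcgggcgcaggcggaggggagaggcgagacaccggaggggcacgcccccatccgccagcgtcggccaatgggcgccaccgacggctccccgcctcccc

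Each motif was searched on both strands in windows of 300 bases, which end 50 bases after the start. TGACGTCA was found in 1 of the 9 member windows, that of Btg2, and in 1.79% of all 32851 promoter windows. The MEF2 motif was found in that of Klf2 (3.19% of all windows), the CArG box, the site of serum response factor, in that of Zfp36 (1.63%), and CACGTG in those of Klf4 and Klf6 (7.15%). TGACG was found in 5 of 9, those of Btg1, Btg2, Klf2, Klf4 and Cyr61 (20.8% of all). The GC box GGGCGG was found in 9 of 9 (35.7%), TATAAA in those of Btg1 and Cyr61 (13.6%), CACCC, a core of sites bound by KLF proteins, in that of Klf2 (57.5%), and the AP-1 site TGANTCA in 0 of 9 (7.81%). A match describes the letters of the window only.

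The SD library held 10262 barcodes with a median of 7534.5 UMIs and the SD+RS library 8106 with a median of 14774, and 23 barcodes occurred in both. After filtering and removal of called doublets, 9297 and 7415 cells were kept, and clusters were named from marker genes without use of the 10 genes. The classes described are endothelial cells (461 in SD and 292 in SD+RS), pericytes (123 and 49), smooth muscle cells (88 and 73), astrocytes (2041 and 1265), oligodendrocytes (1366 and 837), oligodendrocyte precursors (266 and 175), microglia (222 and 169) and neurons (3833 and 4290). All 8 endothelial markers were present in at least 20% of endothelial cells in both libraries, and their summed level was 22140 CPM (UMIs per 1000000 UMIs of the class) in SD and 23530 CPM in SD+RS. The pooled sexes did not enter the libraries alike: among cells with UMIs of Xist or of Y-linked genes only, Xist-only cells made up 49.6% in SD and 78.9% in SD+RS, and 61.1% and 82.6% in endothelial cells. With 1 library per group there was no test of the groups and no p-value, and every interval is a 95% interval that covers counting error only.

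The 10 genes were most abundant in vascular cells in both libraries. Summed over the 10, endothelial cells held 17500 CPM in SD and 14670 CPM in SD+RS, smooth muscle cells 5663 and 4607, and pericytes 4484 and 4145. Microglia followed with 1063 and 1215 CPM, then oligodendrocyte precursors with 242 and 323, astrocytes with 179 and 175, neurons with 123 and 120, and oligodendrocytes with 88.5 and 83.0. The endothelial sum was 142 times that of neurons in SD and 123 times in SD+RS. Each of the 10 was more than 2 times higher in endothelial cells than in astrocytes, oligodendrocytes, oligodendrocyte precursors and neurons in both libraries, where the share of all measured genes that did so was 15.8%, 20.5%, 16.5% and 17.4%. Against microglia 9 of 10 did so (all genes 22.7%), with Btg1 the exception, against smooth muscle cells 8 of 10 (21.2%), without Btg1 and Btg2, and against pericytes 7 of 10 (17.2%), without Btg1, Btg2 and Ier3. Because the list was chosen with earlier results of these data known, these counts describe the list only.

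**Figure D1:**
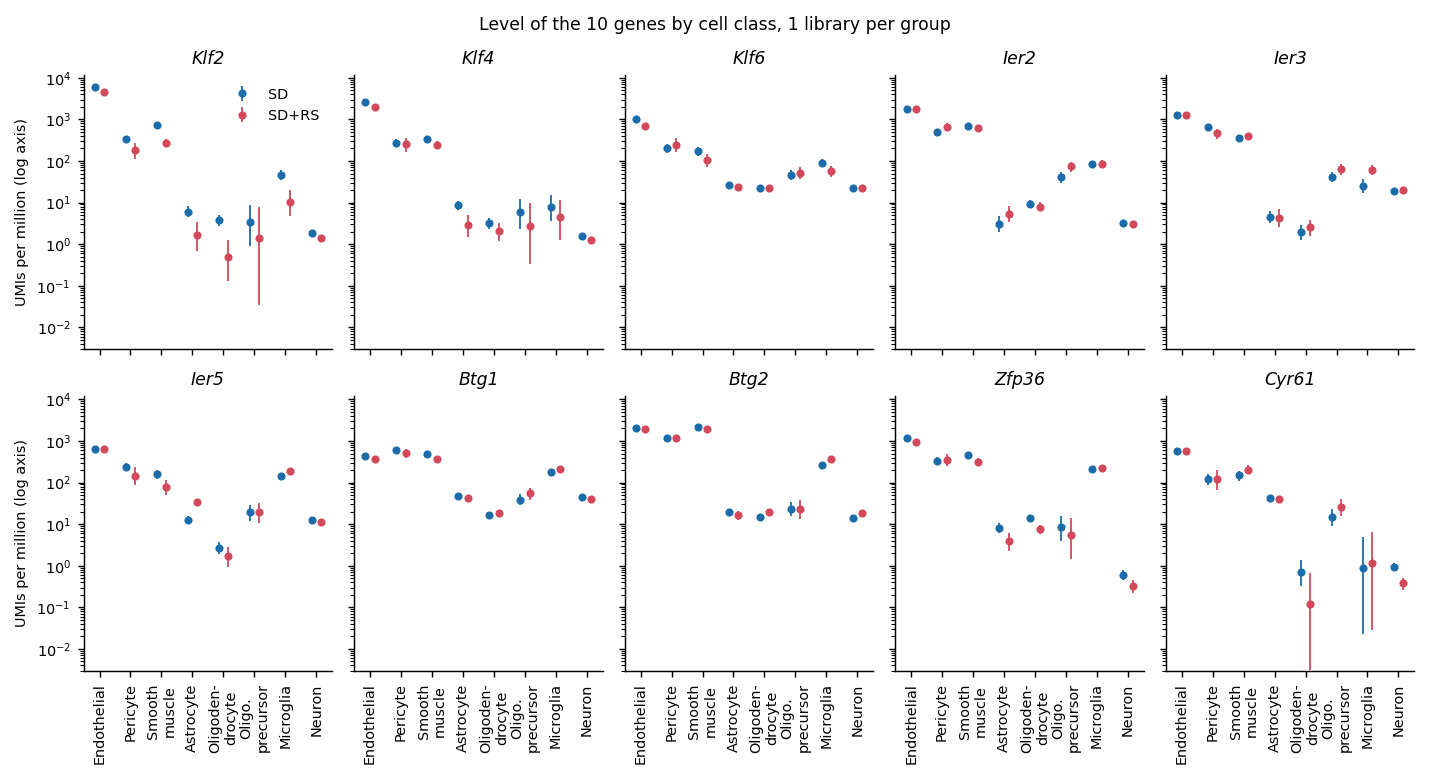
Level of each gene in CPM, on a log axis, in 8 cell classes of the SD library (blue) and the SD+RS library (red). Points are sums over the cells of a class and bars are exact 95% Poisson intervals; endothelial cells held the highest point for every gene but Btg1, whose highest was in pericytes, and Btg2, whose endothelial and smooth muscle points lay together.

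The genes were found together in the same endothelial cells. With every cell thinned to 2000 UMIs, the median endothelial cell held UMIs of 8 of the 10 genes in both libraries, and 95.3% of 404 cells in SD and 95.5% of 244 in SD+RS held at least 5. Cells under 2000 UMIs were left out, 57 and 48 of them; without thinning the median was 9 in both. In pericytes the median was 4 in both libraries, in smooth muscle cells 5 and 4.5, and in microglia 1 in both. In astrocytes, oligodendrocytes, oligodendrocyte precursors and neurons it was 0, and 80.1% of neurons in SD and 77.8% in SD+RS held none of the 10.

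**Figure D2:**
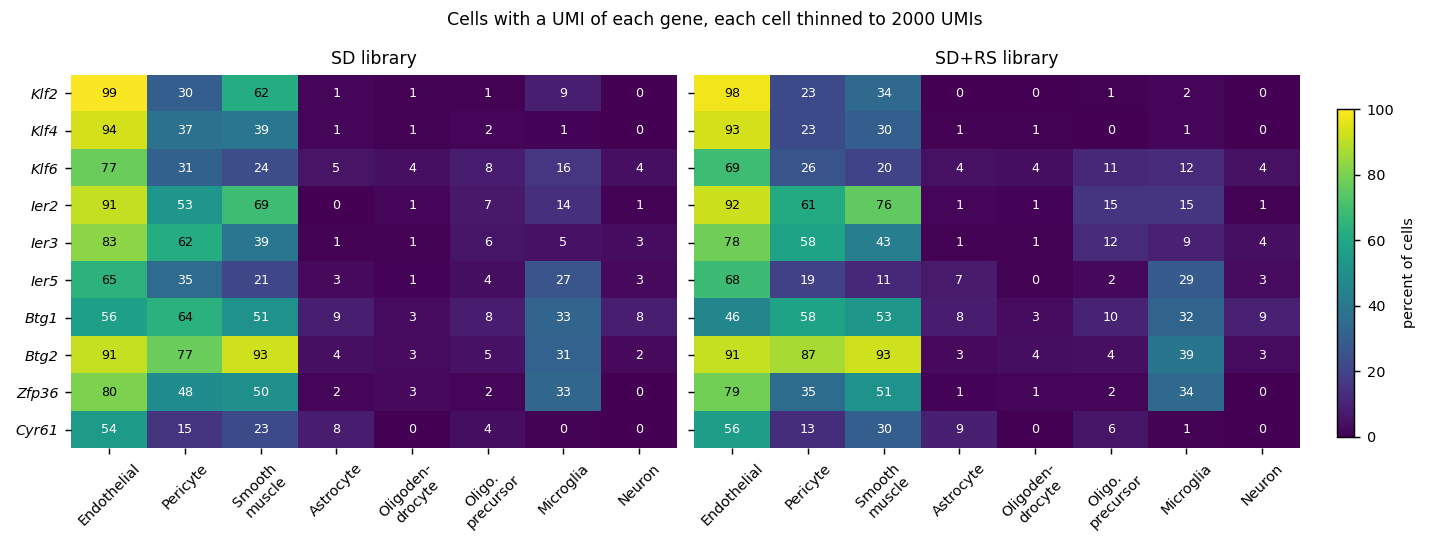
Percent of cells with at least 1 UMI of each gene in 8 classes, after thinning each cell to 2000 UMIs, in the SD library (left) and the SD+RS library (right). Klf2 was found in 99.3% and 97.9% of endothelial cells, and in neurons the highest share was that of Btg1, 8.49% and 9.04%.

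Free RNA in droplets adds transcripts of 1 cell type to cells of another, so each gene's level outside the endothelium was set beside that of the 8 endothelial markers, as a percent of the endothelial level. The markers' median was 5.76% in pericytes in SD and 3.40% in SD+RS, 0.400% and 0.0401% in smooth muscle cells, 0.0996% and 0.0568% in microglia, and 0.0385% and 0.0166% in neurons. The 10 genes' median was 28.8% and 36.2% in pericytes, 27.0% and 32.6% in smooth muscle cells, 6.72% and 6.61% in microglia, and 0.433% and 0.557% in neurons. In astrocytes the markers' median was 0.162% in SD and 0.0782% in SD+RS, and in oligodendrocytes it was 0.101% and 0.0203%. Klf2 was not above the markers' median in both libraries in astrocytes, oligodendrocytes, oligodendrocyte precursors and neurons, and its levels there are read as background. The other 9 genes were above it in both libraries in those 4 classes, and all 10 were in pericytes, smooth muscle cells and microglia. Several of these still lay within the range of the 8 markers. In both libraries this held for Btg2, Ier2, Ier3, Klf4 and Zfp36 in astrocytes, where markers reached 2.70% and 2.59%. It also held for Btg2, Klf4 and Zfp36 in oligodendrocyte precursors (markers to 1.39% and 1.56%). In microglia it held for Klf2, Klf4 and Cyr61 (3.07% and 2.00%), and in pericytes for Klf2 (17.35% and 8.38%). In SD alone it held for Ier5 and Klf6 in astrocytes, Ier3 in microglia and Klf4 in pericytes. Cyr61 in oligodendrocytes was at 0.125% in SD and 0.0210% in SD+RS (1 UMI), where markers reached 0.146% and 0.0367%. Klf4 there was at 0.1225% in SD. In neurons Zfp36 was at 0.053% and 0.0347% and Cyr61 at 0.162% and 0.0652%, where markers reached 0.479% and 0.399%. Ier2 and Klf4 in neurons lay within that range too.

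**Figure D3:**
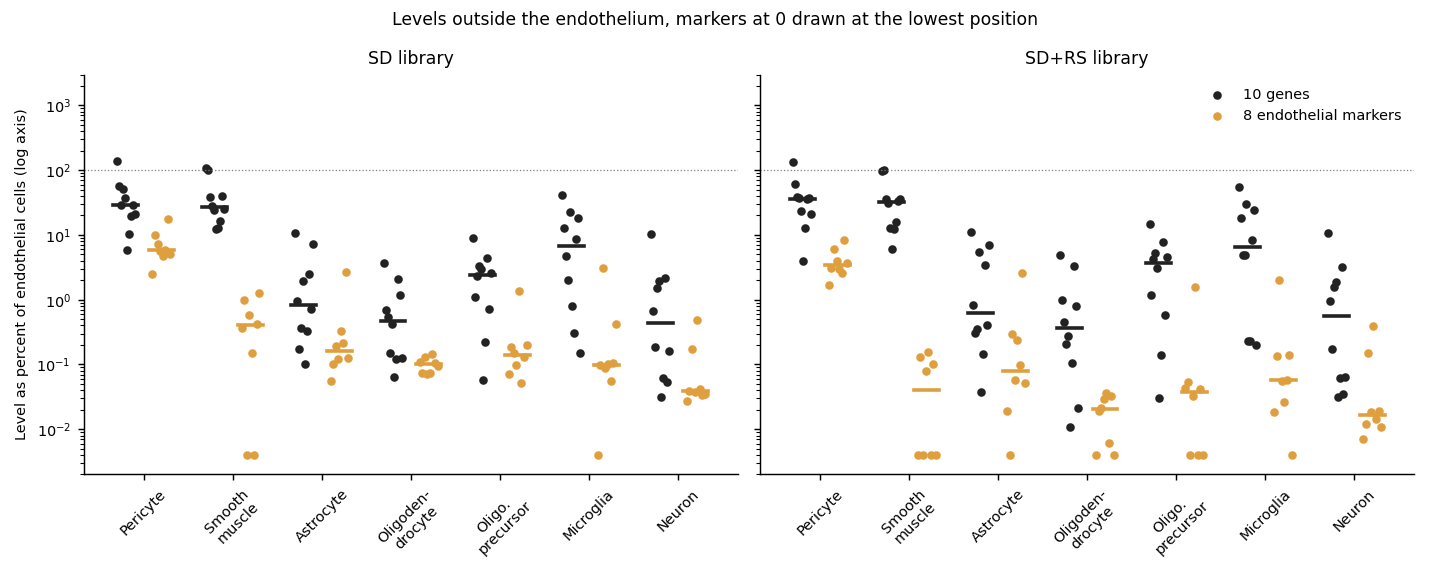
Level in 7 classes as a percent of the endothelial level, on a log axis, for the 10 genes (black) and the 8 endothelial markers (orange), in the SD library (left) and the SD+RS library (right); short lines are medians and markers at 0 are drawn at the lowest position. The lines of the 10 genes lie above those of the markers in every class shown.

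Among the KLF factors, Klf2 stood at 5873 CPM (5770 to 5977) in endothelial cells of the SD library and 4518 (4403 to 4636) in those of the SD+RS library. The intervals do not overlap, and the log2 ratio of SD+RS over SD was −0.38 (−0.42 to −0.33), lower after recovery sleep. In smooth muscle cells Klf2 was at 730 CPM (271 UMIs) in SD and 272 CPM (82 UMIs) in SD+RS, a log2 ratio of −1.42 (−1.80 to −1.06), more than 1.5 times lower. The summed endothelial markers in those smooth muscle cells were 99.7 and 16.6 CPM, and in cells with no UMI of those markers the Klf2 ratio was −1.31. In pericytes Klf2 was at 339 and 182 CPM, which is 5.77% and 4.02% of the endothelial level and within the range of the endothelial markers there. Microglia held 46.9 CPM of Klf2 (53 UMIs) and 10.3 CPM (9 UMIs), for a log2 ratio of −2.18 (−3.39 to −1.15), and −1.90 in microglia with no endothelial marker UMI. The microglial levels were 0.799% and 0.229% of the endothelial ones, also within the range of the markers there (to 3.07% and 2.00%). Astrocytes held 6.05 and 1.70 CPM, oligodendrocytes 3.78 and 0.487, oligodendrocyte precursors 3.33 and 1.37, and neurons 1.84 and 1.44, all at the background named above.

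Klf4, which shares its flow response with Klf2, was at 2624 CPM (2556 to 2694) in SD endothelial cells and 1983 (1906 to 2061) in SD+RS. The intervals were again apart, with a log2 ratio of −0.41 (−0.47 to −0.34). Smooth muscle cells held 339 and 246 CPM and pericytes 273 and 251 CPM, and the intervals of these mural classes overlap within each library. The log2 ratio was −0.47 (−0.90 to −0.04) in smooth muscle cells and −0.12 (−0.78 to 0.50) in pericytes. In astrocytes Klf4 was at 8.60 CPM (64 UMIs) and 2.91 CPM (12 UMIs), a log2 ratio of −1.57 (−2.59 to −0.66). In astrocytes with no UMI of the endothelial markers the ratio was −1.585. In microglia Klf4 gave 9 and 4 UMIs, in oligodendrocyte precursors 7 and 2, and it stood at 3.21 and 2.07 CPM in oligodendrocytes and 1.596 and 1.24 CPM in neurons.

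Klf6, a broadly expressed factor induced by injury, was the only member past 1.5 times in endothelial cells. It was at 1034 CPM (991 to 1078) in SD and 681 (637 to 728) in SD+RS, a log2 ratio of −0.60 (−0.72 to −0.49). It was at 203 and 242 CPM in pericytes and 170 and 106 CPM in smooth muscle cells, where the log2 ratio was −0.68 (−1.34 to −0.04). In Xist-only smooth muscle cells, 68.1% of the called cells in SD and 93.5% in SD+RS, that ratio was 0.043. Microglia held 90.3 and 56.3 CPM, a log2 ratio of −0.68 (−1.21 to −0.18). The other classes kept low levels that did not differ between the libraries beyond counting error: 45.8 and 52.1 CPM in oligodendrocyte precursors, 26.2 and 23.3 in astrocytes, 21.9 and 22.6 in oligodendrocytes, and 22.5 and 22.0 in neurons.

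The 3 immediate early response genes had endothelial levels that did not differ between the libraries beyond counting error. Ier2, which encodes a nuclear regulator of transcription, was at 1768 CPM (1712 to 1826) in SD and 1739 (1668 to 1813) in SD+RS. Ier3, whose protein modulates survival and inflammatory signalling, was at 1262 (1214 to 1311) and 1245 (1185 to 1307), and Ier5, a regulator of the heat shock factor, at 651 (617 to 686) and 625 (583 to 670). The log2 ratios were −0.02 (−0.10 to 0.05), −0.02 (−0.11 to 0.07) and −0.06 (−0.18 to 0.07). Ier2 was at 512 and 675 CPM in pericytes and 692 and 634 in smooth muscle cells, and Ier3 at 657 and 459 CPM in pericytes and 358 and 392 in smooth muscle cells.

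Outside the vessels the 3 genes differed by class. Ier5 in astrocytes was at 12.6 CPM (94 UMIs) in SD and 34.6 CPM (143 UMIs) in SD+RS, a log2 ratio of 1.46 (1.07 to 1.85), the only measured member (at least 50 UMIs over both libraries) more than 1.5 times higher in that class. After thinning, 2.60% of 1920 astrocytes in SD and 7.33% of 1173 in SD+RS held an Ier5 UMI, and without thinning 4.26% and 10.3% did. The ratio was 1.85 (1.31 to 2.43) in Xist-only astrocytes and 0.51 (−0.39 to 1.34) in those with Y-linked UMIs only, and whether these differ was not tested. In smooth muscle cells Ier5 went the other way, from 159 CPM (59 UMIs) to 79.7 CPM (24 UMIs), a log2 ratio of −0.996 (−1.75 to −0.29), and in pericytes it was at 242 CPM (80 UMIs) and 147 CPM (17 UMIs). Microglia held 146 and 191 CPM of Ier5, a log2 ratio of 0.38 (0.06 to 0.70), neurons 12.8 and 11.6, oligodendrocyte precursors 19.2 in both, and oligodendrocytes 2.73 and 1.70.

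Ier3 in microglia was at 25.7 CPM (29 UMIs) in SD and 60.9 CPM (53 UMIs) in SD+RS, a log2 ratio of 1.25 (0.56 to 1.95). Oligodendrocyte precursors held 41.7 and 64.4 CPM of Ier3, for a log2 ratio of 0.63 (0.02 to 1.23), and 40.8 CPM (49 UMIs) and 74.0 CPM (54 UMIs) of Ier2, for a ratio of 0.86 (0.27 to 1.45). These were the 2 members more than 1.5 times higher in oligodendrocyte precursors, of 4 with enough UMIs. By sex call, the Ier3 ratio was 0.025 (−0.81 to 0.86) among Xist-only precursors (53 UMIs). It reached 1.99 (0.86 to 3.18), from 30 UMIs, where precursors held Y-linked but no Xist transcripts. For Ier2 the matching ratios were 0.77 and 0.60. The Xist-only share of called precursors was 57.1% in SD and 78.0% in SD+RS. A difference between the sexes was not tested. Ier2 stood at 83.3 and 86.1 CPM in microglia, 9.40 and 7.91 in oligodendrocytes and 3.27 and 3.03 in neurons, and gave 23 and 22 UMIs in astrocytes (3.09 and 5.33 CPM, a log2 ratio of 0.79 with an interval of −0.13 to 1.69). Ier3 stood at 19.2 and 19.9 CPM in neurons and 4.57 and 4.36 in astrocytes, with 24 and 21 UMIs in oligodendrocytes.

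Among the BTG genes, Btg1 had the smallest endothelial excess over neurons of the 10 genes, 9.60 times in SD and 9.16 times in SD+RS. It was at 441 CPM (413 to 471) in SD endothelial cells and 376 (343 to 411) in SD+RS. Pericytes held 606 (525 to 696) and 511 (389 to 659), and smooth muscle cells 482 and 369. Pericytes stood above endothelial cells in both libraries: the endothelial level was 0.729 (0.625 to 0.853) of theirs in SD and 0.736 (0.561 to 0.982) in SD+RS. Microglia held 184 and 210 CPM, oligodendrocyte precursors 39.2 and 54.8, astrocytes 47.3 and 42.1, neurons 46.0 and 41.0, and oligodendrocytes 16.2 and 18.1.

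Btg2 was at 2108 CPM (2046 to 2170) and 1979 (1903 to 2058) in endothelial cells and at 2128 and 1985 in smooth muscle cells, so these neighbours did not differ beyond counting error in either library. Pericytes held 1199 and 1203 CPM. Its endothelial log2 ratio was −0.09 (−0.16 to −0.02). In neurons Btg2 was at 14.4 CPM (1286 UMIs) in SD and 18.6 CPM (1820 UMIs) in SD+RS, a log2 ratio of 0.37 (0.27 to 0.48), higher after recovery sleep but under 1.5 times. That ratio was 0.10 (−0.04 to 0.25) in Xist-only neurons and 0.66 (0.47 to 0.85) in those with Y-linked UMIs only. Xist-only cells made up 38.8% of called neurons in SD and 77.4% in SD+RS. Whether these sets differ was not tested. Microglia held 268 and 366 CPM, a log2 ratio of 0.45 (0.22 to 0.69), and oligodendrocytes 14.7 and 19.7, a ratio of 0.42 (0.11 to 0.74). Astrocytes held 20.03 and 16.2 CPM, and oligodendrocyte precursors gave 28 and 17 UMIs.

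Over 37 neuron clusters with at least 30 cells in each library, Btg2 ranged from 0 to 87.3 CPM in SD, with a median of 9.21, and from 3.03 to 149 CPM in SD+RS, with a median of 12.2. The highest was the cluster led by Prok2, Adcyap1 and Adamtsl2 in SD and the cluster led by Emx1, Gng8 and Barhl2 in SD+RS. The interval of the Btg2 ratio lay above 0 in 12 clusters and below 0 in 3, which is a description of counting error within 1 library per group. For Btg1 it lay above 0 in 0 clusters and below 0 in 7, and for Klf6 in 0 and 2. The share of all genes with such intervals was not taken, so these counts have no reference. The clusters were not split by sex call.

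Zfp36 was at 1159 CPM (1114 to 1206) in SD endothelial cells and 943 (891 to 997) in SD+RS, with intervals apart and a log2 ratio of −0.30 (−0.40 to −0.20). Smooth muscle cells held 455 and 319 CPM, a ratio of −0.52 (−0.89 to −0.14), and pericytes 333 and 355. Microglia, where tristetraprolin restrains cytokine mRNAs, held 210 and 229 CPM, with overlapping intervals. In oligodendrocytes Zfp36 was at 13.9 CPM (173 UMIs) and 7.67 CPM (63 UMIs), a log2 ratio of −0.86 (−1.30 to −0.43), and in astrocytes at 8.20 CPM (61 UMIs) and 3.88 CPM (16 UMIs), a ratio of −1.08 (−1.98 to −0.27). In cells of these classes with no UMI of the endothelial markers the ratios were −0.81 and −1.26. The oligodendrocyte ratio turned to 0.32 in cells with Y-linked UMIs and none of Xist and to 0.22 in cells of 1500 to 6000 UMIs. Neurons gave 55 and 32 UMIs, 0.614 and 0.327 CPM, and oligodendrocyte precursors 10 and 4 UMIs.

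Cyr61 had the same endothelial level in both libraries within counting error, 579 CPM (547 to 612) in SD and 580 (539 to 623) in SD+RS. Smooth muscle cells held 148 and 206 CPM with overlapping intervals, and pericytes 121 in both. Astrocytes held 42.2 CPM of Cyr61 (314 UMIs, 37.7 to 47.1) and 40.2 CPM (166 UMIs, 34.3 to 46.8), and 8.07% and 8.87% of astrocytes held a UMI after thinning (13.5% and 11.9% without). Oligodendrocyte precursors gave 18 UMIs, 8.89 to 23.7 CPM, and 19 UMIs, 26.04 CPM (15.7 to 40.7), so their interval lay below that of astrocytes in SD and overlapped it in SD+RS. Microglia gave 1 UMI in each library and oligodendrocytes 9 and 1. In neurons Cyr61 was at 0.938 CPM (84 UMIs) and 0.378 CPM (37 UMIs), a log2 ratio of −1.31 (−1.91 to −0.74), and −1.09 in neurons with no endothelial marker UMI.

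**Figure D4:**
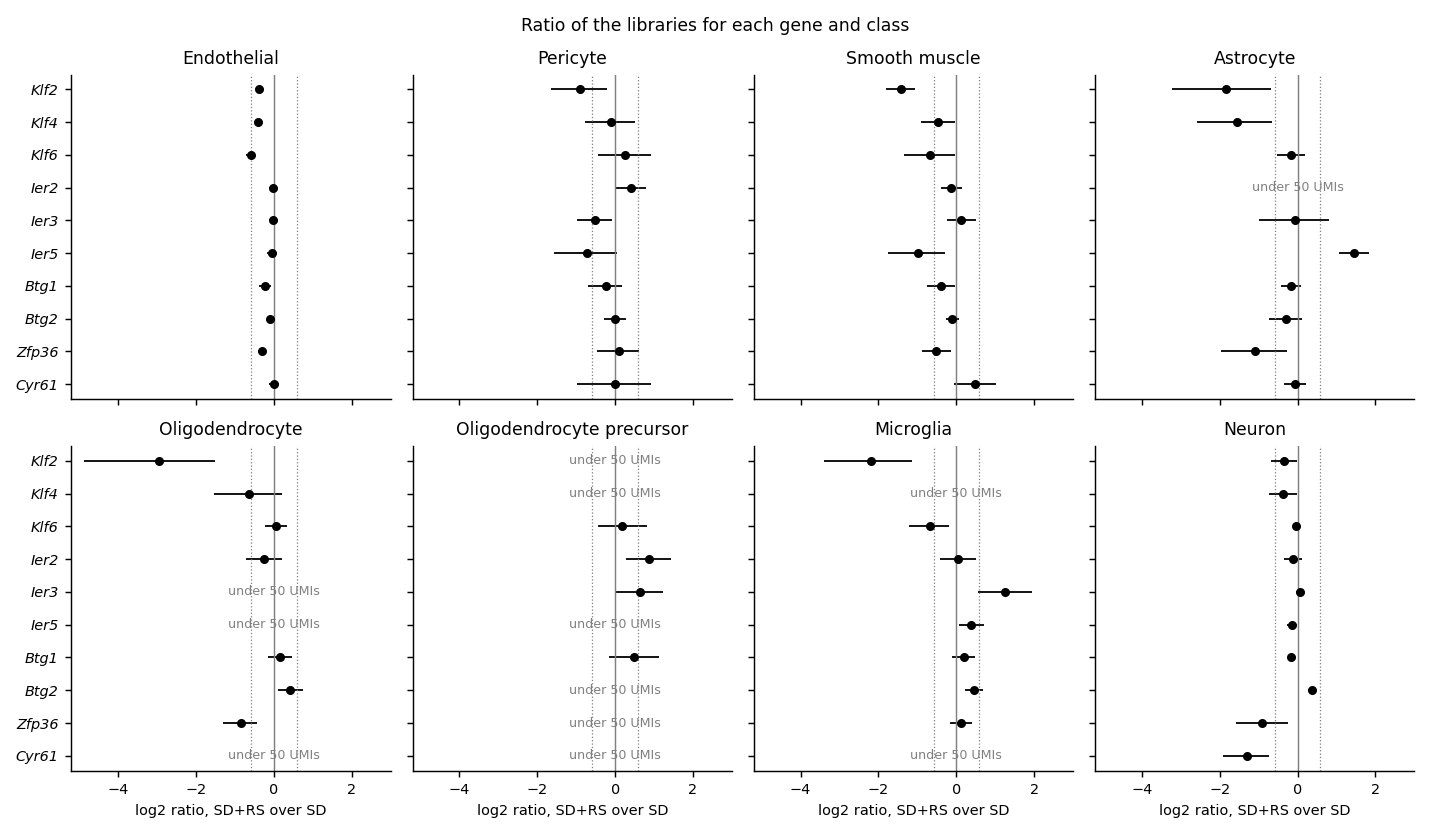
Log2 ratio of SD+RS over SD for each gene in each class, with exact 95% conditional intervals that cover counting error; dotted lines mark 1.5 times and genes with fewer than 50 UMIs over both libraries are not drawn. Endothelial intervals are narrow and reach −0.60 for Klf6, Ier5 is at 1.46 in astrocytes and Klf2 at −2.96 in oligodendrocytes, where its level was at background.

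Counted by class, 1 to 4 measured members passed 1.5 times, and most of them were lower in SD+RS. In endothelial cells 0 of 10 were higher and 1 was lower, where 6.18% of 7446 measured genes were higher and 5.64% lower. In pericytes 0 were higher and 2 lower, Klf2 and Ier5 (all genes 7.94% and 12%). The Ier5 ratio in pericytes, −0.72 (−1.57 to 0.05), was within counting error. In smooth muscle cells 0 were higher and 3 lower, Klf2, Klf6 and Ier5 (4.66% and 6.29%). In astrocytes 1 of 9 was higher and 3 were lower, Klf2, Klf4 and Zfp36 (3.81% and 7.07%). In oligodendrocytes 0 of 7 were higher and 3 lower, again Klf2, Klf4 and Zfp36 (4.47% and 4.64%). The Klf4 ratio there, −0.64 (−1.55 to 0.22), was within counting error. Klf2 was at background in astrocytes and oligodendrocytes. The summed endothelial markers were 96.8 and 103 CPM in astrocytes and 20.7 and 4.87 CPM in oligodendrocytes. In astrocytes Pltp was at 2.70% and 2.59% of its endothelial level, while the markers' median went from 0.162% to 0.0782%. Klf4 there was at 0.328% and 0.147% of its endothelial level and Zfp36 at 0.707% and 0.411%, within the markers' range. How far endothelial background enters these ratios was not tested. The astrocyte count was 1 with each cell classed by its own markers, in Xist-only cells and in Y-only cells (with Y-linked UMIs and none of Xist). The oligodendrocyte count was 0 with cells classed that way and 1 in cells with no endothelial marker UMI, where Klf4 turned to 0.28. In oligodendrocyte precursors 2 of 4 were higher and 0 lower (4.01% and 5.03%), although Ier3 was at 0.025 in Xist-only precursors. In microglia 1 of 8 was higher and 2 were lower, Klf2 and Klf6 (4.59% and 6.62%). Klf2 there lay within the range of the endothelial markers. In neurons 0 of 10 were higher and 2 lower, Zfp36 and Cyr61 (1.63% and 2.80%), both at levels within the range of the endothelial markers there. The endothelial share is near the background of that class. The median log2 ratio of the 10 in endothelial cells was −0.16, against 0.05 over all genes measured there.

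The endothelial ratios were also taken within groups of endothelial cells. These cells were split into 6 subclusters, again without the 10 genes, from both libraries together with no correction. The libraries filled them unequally, with 153 and 11 cells in subcluster 2 and 24 and 101 in subcluster 4. Subcluster 1 was arterial-like (Gkn3, Bmx, Mgp, Vegfc and Sema3g), and subcluster 2 was led by neuronal transcripts such as Meg3 and Snhg11; its summed neuron markers were 1831 CPM in SD and 6633 in SD+RS. Within subclusters the Klf2 log2 ratio was −0.31, −0.24, −1.62, 0.17, −0.04 and −0.05 from subcluster 0 to 5. Its interval was below 0 in subclusters 0, 1 and 2 and above 0 in subcluster 3. Klf6 was lower in SD+RS in all 6, by 0.22 to 0.98 on the log2 scale, with the interval below 0 in subclusters 0, 1 and 2. Btg2 was lower in subcluster 2 and higher in subclusters 3 and 4, at 0.60 (0.40 to 0.80) and 1.11 (0.66 to 1.595). With the 5 subclusters of at least 20 cells in each library weighted equally, a setting chosen after seeing the data, the ratio of the summed 10 genes was −0.01 instead of −0.26. Without subcluster 2, another setting of that kind, Klf6 was at −0.57 and no endothelial member passed 1.5 times. With equal weights Klf2 was at −0.11, Klf4 at −0.09, Zfp36 at −0.02 and Klf6 at −0.40.

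**Figure D5:**
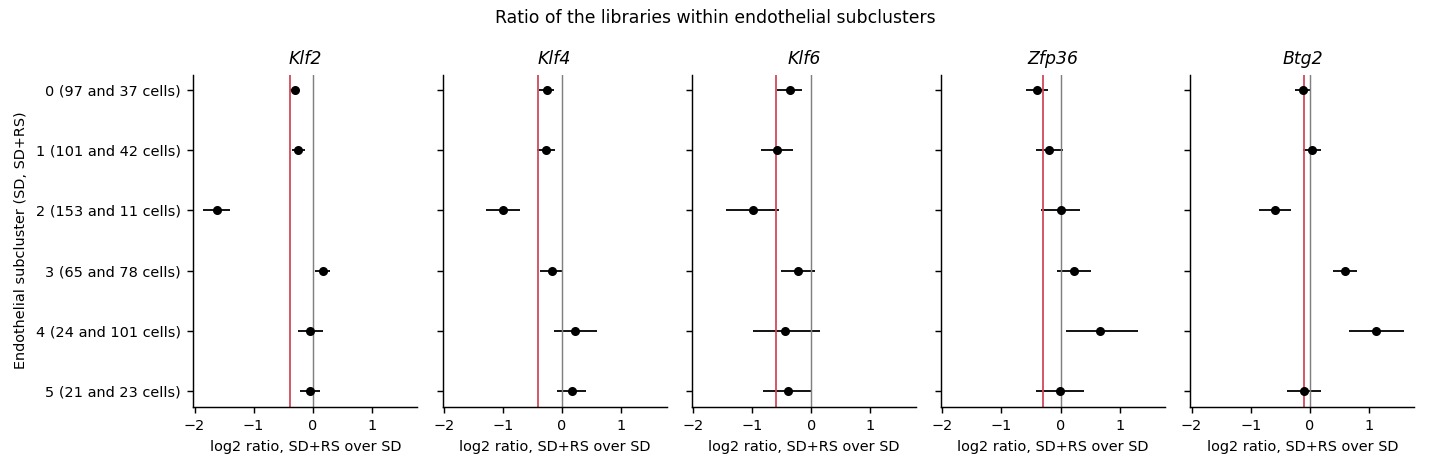
Log2 ratio of SD+RS over SD within each of 6 endothelial subclusters for 5 genes, with 95% counting intervals; the red line is the ratio over all endothelial cells and the grey line is 0. Klf6 lies left of 0 in every subcluster, while Klf2 reaches −1.62 in subcluster 2 and 0.17 in subcluster 3.

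Summed blood markers in endothelial cells were 4.72 CPM in SD and 13920 CPM in SD+RS, where 4 cells held 17833 of 17880 haemoglobin UMIs; without those cells the ratio of the summed 10 genes was −0.23. The summed neuron markers were 826 and 833 CPM.

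By sex call, Klf2 in endothelial cells had a log2 ratio of −0.41 (−0.47 to −0.34) in Xist-only cells and −0.14 (−0.24 to −0.05) in Y-only cells. Klf6 had −0.68 (−0.83 to −0.53) and −0.54 (−0.81 to −0.28). Klf4 had −0.26 (−0.35 to −0.17) and −0.63 (−0.80 to −0.47). All 3 were lower in SD+RS in both sets of cells. Zfp36 had −0.09 (−0.23 to 0.04) in Xist-only cells, within counting error, and −0.53 (−0.77 to −0.30) in Y-only cells. Ier3 had 0.19 (0.07 to 0.31) in Xist-only cells and −0.55 (−0.79 to −0.32) in the others, with 39 such cells in SD+RS. A further cluster of 162 and 133 cells carried endothelial and pericyte markers together and stayed unnamed. In it Klf2 was at 4148 and 2952 CPM, Klf6 at 874 and 615, and Cyr61 at 421 and 544, and the summed 10 genes had a ratio of −0.23 (−0.26 to −0.20).

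Other early and stress genes were abundant in the same endothelial cells. Of 20 other immediate early genes 15 were measured there, 0 were more than 1.5 times higher and 3 lower (all genes 6.18% and 5.64%). Their median log2 ratio was −0.21. Jun was at 5932 CPM in SD and 5143 in SD+RS, Junb at 4130 and 3969, and Fos at 3360 and 2793. The 3 past 1.5 times were Maff, at 162 and 67.6 CPM, Atf3, at 1358 and 897 CPM, and Egr2, at 19.3 and 12.4 CPM. Of 18 dissociation and stress genes all 18 were measured, and 0 were higher and 7 lower (all genes 6.18% and 5.64%). The 7 were Hspa1b (log2 ratio −1.94), Hspa1a (−1.49), Hspa8 (−1.12), Cebpd (−0.84), Hsp90aa1 (−0.78), Dnajb1 (−0.64) and Hspb1 (−0.60). Hspb1 stood at 3733 and 2465 CPM, Hspa8 at 2617 and 1206, and Nfkbia at 1650 and 1402. In the other classes the genes of this list that were lower numbered 11 of 17 measured in astrocytes (all genes 7.07%), 9 of 15 in oligodendrocytes (4.64%), 9 of 15 in pericytes (12%) and 5 of 9 in oligodendrocyte precursors (5.03%). They numbered 4 of 11 in microglia (6.62%), 4 of 14 in smooth muscle cells (6.29%) and 4 of 18 in neurons (2.80%). In astrocytes, pericytes, oligodendrocyte precursors and microglia 1 gene each was higher, and in the others 0. The list's part in the members' ratios was not tested.

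Family relatives of the members, 19 genes of which 14 were measured in endothelial cells, gave 0 higher and 1 lower (all genes 6.18% and 5.64%). The same shares apply to the shorter lists below, and 1 gene of so few is not read as a result. Tob1, of the BTG family, was at 751 and 531 CPM, Zfp36l1 at 651 and 692, and Ier5l at 560 and 509. The lower gene was Ctgf, of the family of Cyr61, at 109 and 54.4 CPM (log2 ratio −1.003). Of 7 YAP target genes 5 were measured, and Ctgf, which is on both lists, was the 1 lower; Lats2 was at 106 and 87.8 CPM and Amotl2 at 75.4 and 81.5. Of 7 genes that respond to flow and KLF2, 5 were measured, and Vcam1, an adhesion molecule, was lower, at 147 and 83.9 CPM. Vcam1 was a leading gene of endothelial subcluster 0, as was Cxcl1, named below. It was found in 30% of the cells of that subcluster and in 11% or fewer in each other one. Subcluster 0 held 97 of 461 endothelial cells in SD and 37 of 292 in SD+RS. How far this mix enters the Vcam1 ratio was not tested. S1pr1, a receptor that stabilises the endothelial barrier, was at 456 and 324 CPM, thrombomodulin (Thbd) at 221 and 210, and nitric oxide synthase (Nos3) at 187 and 172. The fifth, Edn1, which encodes the vasoconstrictor endothelin, was named after its values were seen: it was at 102 and 152 CPM, higher in SD+RS with a log2 ratio of 0.58 (0.29 to 0.86). Of 9 AU-rich mRNAs bound by ZFP36, 3 were measured, Cxcl1 at 110 and 102 CPM, Cxcl2 at 42.9 and 34.9, and Ptgs2 at 73.1 and 31.1, the last more than 1.5 times lower.

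In astrocytes, the class in which Ier5 was higher, Jun was at 16.3 and 32.7 CPM and Jund at 65.9 and 109, both more than 1.5 times higher, and Junb was at 13.04 and 7.27, lower. Over the 16 points of 8 classes in 2 libraries, the genes whose log2 levels were most like the mean profile of the 10, among 14600 genes, were Ifitm3 (Pearson r = 0.976), Cast (0.972), Clec2d (0.971), Nfkbiz (0.969) and Fam129b (0.966). For the single members the most alike were Clec2d for Klf2 (0.984), Klf2 for Klf4 (0.978), Dusp1 for Klf6 (0.976) and for Ier2 (0.972), Fos for Ier3 (0.967) and Elk3 for Ier5 (0.957). They were Cast for Btg1 (0.976), Atf3 for Btg2 (0.984), Msn for Zfp36 (0.970) and Id3 for Cyr61 (0.989). The points share libraries and classes, so these values describe likeness only.

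The authors' own clusters were made from the same 2 libraries, so their marker genes are no independent evidence. Their cells were not matched to the classes used here. These marker genes list the 10 genes together. For both libraries at once, the authors' deposited table has 1 cluster, i17, that lists all 10. There Klf2 was found in 100% of the cells of i17 and 3.10% of the rest in the authors' deposited table, Zfp36 in 91.8% and 1.30%, Cyr61 in 77.6% and 1.5%, and Btg1 in 83.7% and 54.0%. The endothelial gene Cldn5 was in 100% and 1.40% of the same cells by the authors' deposited table. For SD alone, all 10 are listed for cluster 26 in the authors' deposited table, and for SD+RS alone 9 are listed for cluster 30, without Btg1. Both lists hold Cldn5, in 70.7% and 63.0% of the cells of the cluster by the authors' deposited tables. The SD list also holds the pericyte marker Kcnj8, in 32.8% of the cells of cluster 26, and the smooth muscle marker Acta2, in 13.8%, by the authors' deposited table.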

How the data were processed

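Each library was 1 sample, grouped by its treatment label. Deposited values were raw UMI counts, and per the file headers they come from Cell Ranger 3.0.2. The submitters' processing notes name build mm10 and Seurat 4.0.4. The authors' deposited marker tables give the share of cells with a gene as a fraction, per the file headers, and only those shares were used, as percentages.

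Barcodes were kept from 500 genes upwards if mitochondrial UMIs stayed under 20%, 9875 in SD and 7709 in SD+RS. Scrublet, as run in scanpy 1.11.5, marked 578 cells (5.85%) and 294 cells (3.81%) as doublets, which were removed. Both libraries were clustered together, with no correction, from 2000 variable genes, 40 components and 20 neighbours by the Leiden method (leidenalg 0.10.2) at resolution 1. The 10 genes and all listed early, stress, mitochondrial, ribosomal, haemoglobin and sex-linked genes were left out of clustering. A cluster was named with at least 3 markers of a class, each in at least 20% of its cells, and stayed unnamed where another class reached 0.75 of its score; these thresholds were set after seeing the data. Among the 4 clusters left unnamed was a shallow one with neuron markers, of 589 and 67 cells, and classes under 40 cells in a library were not described.

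UMIs were summed per class and library and scaled to 1000000. Levels have exact Poisson intervals, shares exact Clopper-Pearson intervals and ratios exact conditional binomial intervals (scipy 1.17.1), at 95%. Genes with at least 50 UMIs over both libraries were called measured. The ratio and interval code was tested on simulated data. Members and gene lists were chosen with earlier results of these data known. Named genes were all members, the 3 measured genes of each other list with the highest endothelial level, any measured gene of these lists past 1.5 times in the class described (for the lists, endothelial cells), and the genes most alike in profile; the early genes named in astrocytes follow the same rule there. Endothelial subclusters, the sex calls per class and the authors' cluster i17 were examined after their values were seen.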

Additional observations from a re-analysis of the deposited data

Results flagged for a closer look

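Ier5 differed in direction between classes: the log2 ratio of SD+RS over SD was 1.46 in astrocytes and −0.996 in smooth muscle cells, a gap of 2.45, and each interval left out 0. Ier3 did so between microglia, at 1.25, and pericytes, at −0.52, a gap of 1.76. Klf2 in neurons went opposite ways by sex call, at −0.91 (−1.46 to −0.35, 116 UMIs) in Xist-only neurons and 0.82 (0.29 to 1.33, 132 UMIs) in neurons with Y-linked UMIs only, a gap of −1.72. Its level over all neurons was 0.0314% of the endothelial level in SD and 0.0319% in SD+RS. That was below the endothelial markers' median in SD (0.0385%) and above it in SD+RS (0.0166%), within the markers' range in both. With 1 library per group these differences were not tested.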

How the results depend on the processing

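No paired analysis was possible because each group is 1 library. Classes with under 20 cells in a library under a setting gave no value, and at the lower Leiden resolution of 0.6 pericytes and smooth muscle cells were not separate classes. Settings on the endothelial subclusters, haemoglobin and endothelial markers were chosen after seeing the data. Endothelial Klf2, Klf4, Klf6, Zfp36 and Btg1 were lower in SD+RS under each of the alternatives run, and Klf6 ranged from −1.003 to −0.40, whereas Ier2, Ier3, Ier5, Btg2 and Cyr61 changed sign under some. The summed endothelial log2 ratio was −0.30 when centred on all genes, −0.18 as a mean over cells, −0.18 with doublets kept, −0.22 with each cell classed by its own markers (class by cell), −0.20 in Xist-only cells, −0.19 in cells of 1500 to 6000 UMIs, −0.21 without the subcluster led by Meg3, and −0.008 with subclusters weighted equally; endothelial members past the fold numbered 0 with doublets kept, at 1500 to 6000 UMIs, at a fold of 2 and without that subcluster.

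The endothelial over neuron ratio of the summed genes in SD and SD+RS was 132 and 117 as a mean over cells, 101 and 98.8 with doublets kept, 135 and 118 in Xist-only cells, 157 and 138 in Y-only cells, and 90.7 and 99.0 at 1500 to 6000 UMIs. The summed neuron ratio was 0.003 as a mean over cells, −0.15 with doublets kept, −0.002 in Xist-only and −0.089 in Y-only cells, and −0.32 at 1500 to 6000 UMIs. Microglia gave 0.054 with doublets kept, 0.32 at resolution 0.6, 0.062 with class by cell, 0.49 in Xist-only cells and −0.019 at 1500 to 6000 UMIs. Oligodendrocytes gave −0.27 in Xist-only and 0.22 in Y-only cells, 0.066 at 1500 to 6000 UMIs and 0.71 with class by cell. Smooth muscle gave −0.50 when 1000 genes and less than 10% mitochondrial UMIs were required.

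The share of all genes past the fold was taken in the main analysis only. Counts under other settings, here and above, therefore have no such share beside them. Members past the fold numbered, with at least 200 UMIs, 0 in pericytes, oligodendrocyte precursors, microglia and neurons and 1 in smooth muscle cells, astrocytes and oligodendrocytes. At a fold of 2 they numbered 0 in pericytes and oligodendrocyte precursors and 1 in smooth muscle cells, oligodendrocytes and neurons. They numbered 1 in pericytes and neurons as a mean over cells, 1 in oligodendrocyte precursors and 4 in neurons with doublets kept, 1 in oligodendrocyte precursors at resolution 0.6 and 1 in pericytes at 1.6. With class by cell they numbered 1 in astrocytes, microglia and neurons and 0 in oligodendrocytes. In Xist-only cells they numbered 1 in astrocytes and oligodendrocyte precursors, and in Y-only cells 1 in astrocytes and 0 in oligodendrocyte precursors and microglia. At 1500 to 6000 UMIs they numbered 1 in oligodendrocytes and 0 in neurons, and in cells with no endothelial marker UMI 1 in oligodendrocytes and pericytes. Zfp36 changed sign to 0.71 in neurons as a mean over cells and in oligodendrocytes to 0.32 in Y-only cells and 0.22 at 1500 to 6000 UMIs; Klf6 in smooth muscle cells went to 0.043 in Xist-only cells, and Klf4 in oligodendrocytes to 0.28 in cells with no endothelial marker UMI. The cause was not tested. Ratios resting on under 100 UMIs, outside the endothelium, are limited by depth.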
